A study of Homo sapiens with 12 samples.

Results

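This account follows 36 genes of 58735 in the deposited tables, the genes whose products bring new proteins into or across the membrane of the endoplasmic reticulum (ER) and begin their glycosylation. The list was drawn up by gene name and function, with earlier results of these data known, as the SEC61 channel (SEC61A1, SEC61A2, SEC61B, SEC61G), SEC62 and SEC63, the TRAP complex (SSR1 to SSR4), TRAM1 and TRAM2, the signal recognition particle (SRP9, SRP14, SRP19, SRP54, SRP68, SRP72), its receptor (SRPRA, SRPRB), the oligosaccharyltransferase or OST (DDOST, RPN1, RPN2, STT3A, STT3B, DAD1, OST4, OSTC, KRTCAP2, TUSC3, MAGT1) and the signal peptidase (SPCS1, SPCS2, SPCS3, SEC11A, SEC11C). All 36 were found by symbol and all 36 passed the filter on low counts in every comparison.

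The libraries were made from MDA-MB-231, a long-established line of triple-negative human breast cancer, in 4 groups of 3. By their titles the groups carried the guide RNA sgUFL1, the guide sgUFM1, the control guide sgCtrl for the sgUFL1 experiment or sgCtrl for the sgUFM1 experiment. UFL1 is the ligase that attaches the small ubiquitin-like protein UFM1 to its substrates. All cells carried a guide, and the sources speak both of knockdown and of knockout, with no statement on clones, guide sequence or time after delivery. The labels do not say whether replicates were separate cultures, so the p-values measure the spread among these libraries, which may be technical.

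The group names of 6 libraries differ between the deposited count table and the deposited FPKM table. Set 1 denotes the 3 libraries that are sgUFL1 in the count table and sgCtrl for sgUFM1 in the FPKM table, and set 2 denotes the 3 with the opposite pair of names. The sgUFM1 libraries and the sgCtrl libraries for sgUFL1, below called the controls, have 1 name in both tables. UFM1 stood at 37.1, 39.7 and 39.4 CPM (counts relative to the scaled library total) in the sgUFM1 libraries and at 49.2 to 71.0 in the other 9. UFL1 stood at 12.7, 11.5 and 13.1 CPM in set 2, at 16.6, 19.4 and 18.1 in set 1, and at 19.7 to 30.2 in the controls and sgUFM1 libraries. By edgeR the log2 fold change of UFL1 against the controls was -1.02 in set 2 (adjusted p = 0.0017) and -0.45 in set 1 (adjusted p = 0.13). Between sets 2 and 1 it was -0.53 (adjusted p = 0.052). UFM1 stood at -0.76 in sgUFM1 against the controls (adjusted p = 0.0026). Which table names sets 1 and 2 correctly was not settled from these values, and comparisons with either set are given with both readings.

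Most secreted and membrane proteins enter the ER through the SEC61 channel. SRP binds a signal sequence as it leaves the ribosome and hands the ribosome to its receptor at the membrane, the channel takes the chain in, signal peptidase cuts the signal off and OST transfers a preformed glycan to asparagine. UFM1 is known to be attached to a protein of the large ribosomal subunit on ribosomes docked at this channel, so the machinery is a neighbour of the modification that the guides address.

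Library totals ran from 15342793 to 18033331 counts. Weighted by counts, transcript GC content averaged 48.33% to 49.38% in the controls and 49.81% to 50.94% in the other 9 libraries, and the share of counts from mitochondrial genes was 4.51% to 4.76% in the controls and 3.12% to 4.0% elsewhere. Set 1 replicate 1 was the lowest of its set for 31 of 36 members, and sgUFM1 replicate 3 the highest of its set for 28. All 8 markers of a basal-like line were detected at or above 1 CPM in all 4 sets. Of 12 luminal markers, 9 were so detected in the controls, 9 in set 1, 10 in set 2 and 11 in sgUFM1. Detection at this level therefore does not separate the 2 types. The summed level of 12 luminal markers was lowest in the controls (273 to 295 CPM), followed by set 1 (317 to 350), while set 2 (366 to 423) and sgUFM1 (382 to 395) overlapped. Leukocyte markers summed to at most 4.54 CPM, with CD3E and MS4A1 at 0 in all sets, and 10 fibroblast and endothelial markers to 26.7 to 38.1 CPM outside sgUFM1 and 47.2 to 52.5 CPM in it, where PECAM1 had a mean of 26.8 CPM. The part of these differences in the results below was not tested.

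In the sgUFM1 libraries 4 members were higher than in the controls, namely SEC61A1, SEC61B, SRPRA and OST4, and 1 was lower, SEC61A2, at an adjusted p below 0.05 (edgeR). Of all 15035 genes tested there, 5.57% were higher and 4.43% lower. Against set 2, 21 members were higher and none lower, where 19.3% of all genes were higher and 18.5% lower. Against set 1, 8 members were higher and none lower, against 4.57% and 5.15% of all genes. In neither comparison was a member lower at an unadjusted p below 0.05 (0 members) or by DESeq2 (0 members). SEC61A1 and SRPRA were higher in all 3 comparisons, which 1.25% of the 14669 genes tested in all 3 were, and none was lower in all 3 (0.811% of genes). With any 1 of the sgUFM1 libraries left out, 0 members met that rule. These comparisons share the sgUFM1 libraries and are not independent of each other. In bulk RNA, fewer cells with a transcript and less transcript per cell cannot be told apart. The map of all members by library shows SEC61A1 and SRPRA higher in the sgUFM1 columns than in all others. RPN1 and SPCS1 also had every sgUFM1 library above all others. By edgeR they were not called against the controls (adjusted p = 0.056 and 0.079) or set 1 (adjusted p = 0.18 and 0.13).

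**Figure D1:**
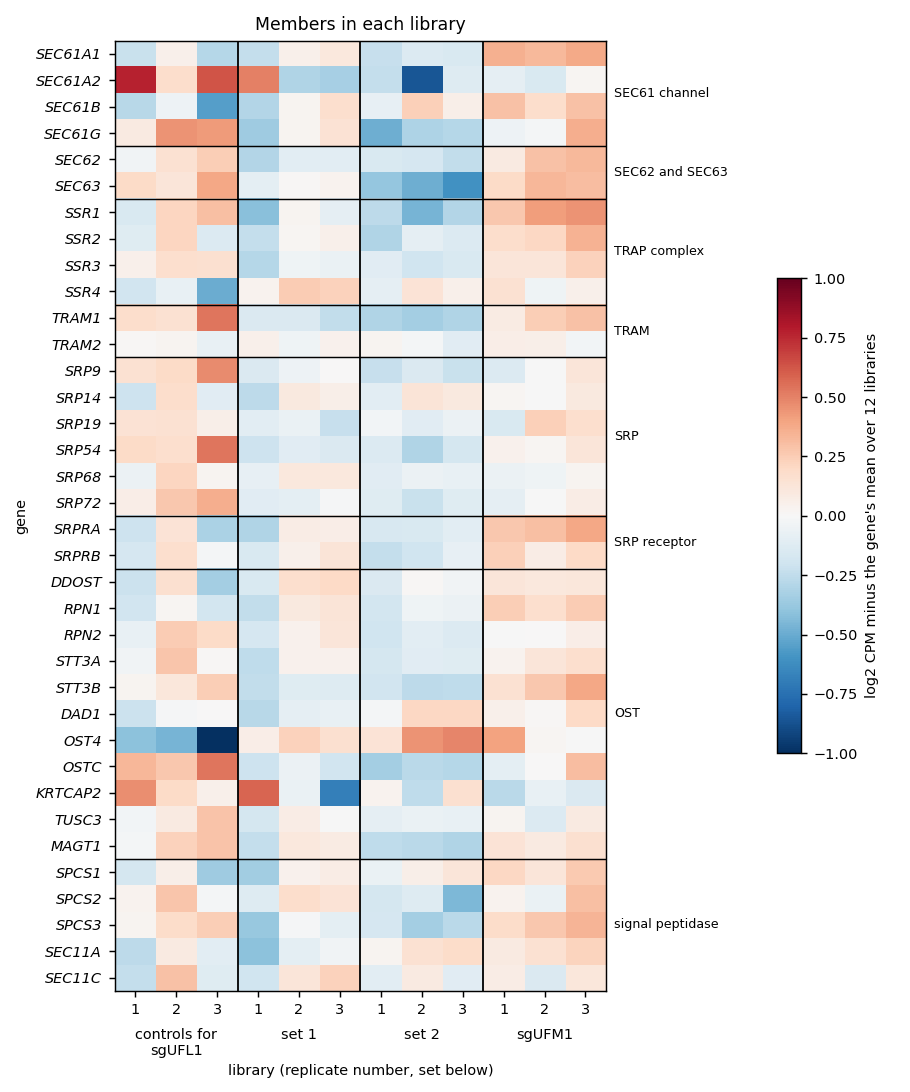
Log2 CPM of each of the 36 members (rows, grouped by complex) in each of the 12 libraries (columns, by set and replicate number), minus the mean of that gene over the 12 libraries, with red for higher and blue for lower. SEC61A1 and SRPRA are red in all 3 sgUFM1 columns, and the column of set 1 replicate 1 is mostly blue, being the lowest of its set for 31 of 36 members.

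Levels can be compared between genes only per length, for which the deposited FPKM values were used. Among subunits of OST the mean over 12 libraries ran from 166 FPKM for DAD1, 131 for RPN2 and 107 for DDOST down to 23.0 for MAGT1, 15.9 for TUSC3 and 1.08 for KRTCAP2. The catalytic subunits STT3B (54.9 to 86.1 FPKM over the libraries) and STT3A (33.0 to 47.6) did not overlap, and neither did RPN2 and RPN1 (114 to 156 against 43.0 to 60.5). In the channel, SEC61A1 had a mean of 89.5 FPKM, SEC61G of 47.0, SEC61B of 46.5 and the paralogue SEC61A2 of 2.45. The ranges of SEC61G (32.8 to 62.9) and SEC61B (31.4 to 56.3) overlapped almost wholly, so their order is not resolved.

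Within the particle, SRP9 and SRP14, which form the heterodimer that slows elongation, had means of 103 and 91.5 FPKM. SRP72, SRP54 and SRP68 lay close together at 23.2, 21.8 and 21.3 FPKM, and SRP19 at 2.24. For the receptor, SRPRA had 97.5 FPKM and SRPRB 13.4. The TRAP subunits had means of 69.9 (SSR3), 41.8 (SSR2), 14.6 (SSR1) and 12.9 FPKM (SSR4), and the last pair overlapped. TRAM1 had 41.1 FPKM and TRAM2 32.1, SEC62 had 13.2 and SEC63 8.05. The signal peptidase ran from 32.8 FPKM for SPCS3, 26.8 for SPCS2 and 25.0 for SPCS1 to 15.5 for SEC11A and 5.08 for SEC11C. Gene length in these values is the union of all annotated exons for 36 of 36 members, so a gene with long, rarely used exons reads lower. KRTCAP2 is divided by 3826 bases and SRP19 by 10517. KRTCAP2 was also low before division by length, with a mean of 4.16 CPM beside 136 for DAD1. It overlaps AL713999.1 on the same strand, a gene with 0 counts in all libraries. Whether reads shared by both genes were left uncounted was not tested, so the level of KRTCAP2 is uncertain.

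**Figure D2:**
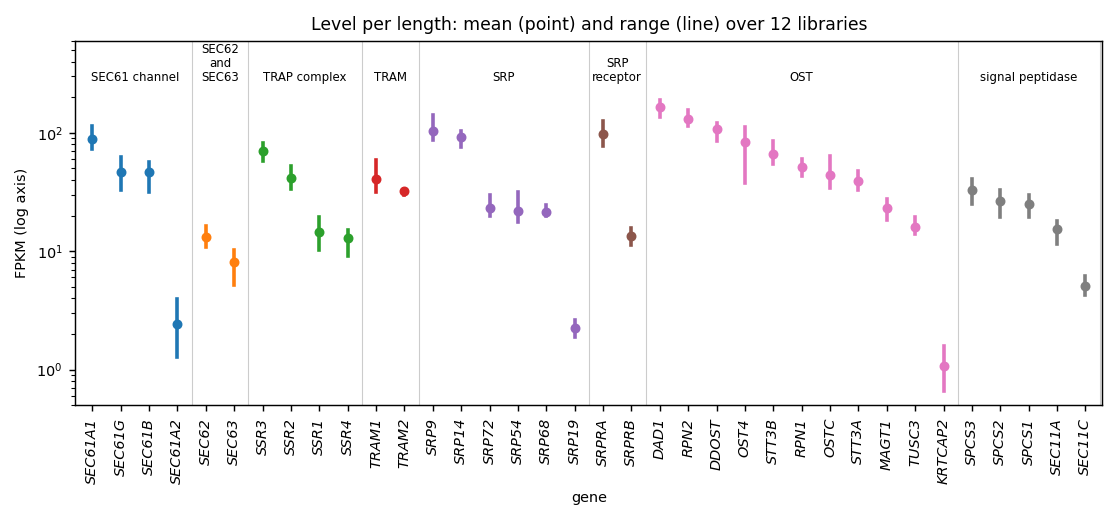
FPKM on a log axis for each member (x axis, grouped by complex and ordered by mean), with the point at the mean and the line from the lowest to the highest of 12 libraries. Members of 1 complex differ widely, from 166 FPKM for DAD1 to 15.9 for TUSC3 and 1.08 for KRTCAP2 within OST. The level of KRTCAP2 is uncertain, as it overlaps another gene on the same strand.

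Motifs of the unfolded protein response were looked up in RefSeq promoter windows (GRCh38.p14, 250 bases before to 50 after a start, both strands), since that response is known to raise many ER genes. Windows were found for 30 of 36 members; RPN1, SPCS1, SRPRA, STT3B, TRAM1 and TUSC3 were not matched. The XBP1 and ATF6 site called UPRE, TGACGTGG, was present in 4 of the 30, SSR3, SEC62, SRP19 and SSR4, and in 253 of 27305 genes (0.927%). The 4 sites are shown because they are the only matches to UPRE among the members, each with 11 flanking bases on either side, read 5′ to 3′ on the strand of the gene, with the complement of the motif in capitals:
SSR3: tctgataacagCCACGTCAgcaaggaaact
SEC62: ccctcctcgctCCACGTCAgagggaaccgg
SRP19: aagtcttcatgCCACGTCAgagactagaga
SSR4: tcagggaggggCCACGTCAgtgctgccaga
In all 4 the motif lies in the orientation opposite to the gene. The SSR3 window is chr3:156554148-156554177 on the minus strand, inside the gene in GENCODE 29 and outside its exons. The SEC62 window is chr3:169966779-169966808 (plus strand) and the SSR4 window is chrX:153794528-153794557 (plus strand), both in exon sequence outside the coding part. The SRP19 window, chr5:112861164-112861193 (plus strand), has 6 of its 30 bases in the first annotated exon. The motif stands at positions -41 to -34 from the RefSeq start in SSR3, -17 to -10 in SEC62, -112 to -105 in SRP19 and -129 to -122 in SSR4.
No member had the longer ER stress elements ERSE (0.092% of genes) and ERSE-II (0.07%) or the cyclic AMP element TGACGTCA (2.249%). The 5-base part CCACG, which the UPRE complement and the ERSE elements contain, was in 20 of 30 members and in 42.095% of all genes. These matches describe the letters alone.

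The pore-forming subunit SEC61A1 (ENSG00000058262, GRCh38 chromosome 3, 128051641 to 128071683) was measured at 358, 434 and 344 CPM in the controls, 354, 434 and 451 in set 1, 356, 381 and 376 in set 2 and 536, 523 and 543 in sgUFM1. Every sgUFM1 library lay above all 9 others. The log2 fold change was 0.49 (SE 0.11, adjusted p = 0.02) against the controls, 0.37 (SE 0.09, adjusted p = 0.032) against set 1 and 0.53 (SE 0.06, adjusted p = 8.0e-07) against set 2. Its paralogue SEC61A2 had 15.7, 10.4 and 14.3 CPM in the controls, 13.1, 7.48 and 7.34 in set 1, 7.82, 5.11 and 8.45 in set 2 and 8.68, 8.3 and 9.34 in sgUFM1. The controls lay above sgUFM1 and set 2 and overlapped set 1. Against the controls, SEC61A2 was lower by -0.62 in sgUFM1 (SE 0.18, adjusted p = 0.049). In set 2 it was lower by -0.94 (SE 0.22, adjusted p = 0.0067). With the offsets for transcript GC content and length described below, neither call held (-0.50, adjusted p = 0.093, and -0.73, adjusted p = 0.058).

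SEC61B, a small tail-anchored subunit, had 45.5, 53.2 and 37.6 CPM in the controls, 44.9, 56.2 and 61.8 in set 1, 52.0, 64.9 and 57.4 in set 2 and 67.4, 62.3 and 67.5 in sgUFM1. The sgUFM1 libraries were above all controls and all of set 1, and overlapped set 2 by 1 library. The difference from the controls was 0.53 on the log2 scale (SE 0.13, adjusted p = 0.027), while that from set 1 was 0.28 (SE 0.11, adjusted p = 0.13). SEC61G, the other small subunit, had 91.0, 117 and 115 CPM in the controls, 66.9, 87.3 and 94.3 in set 1, 61.0, 69.1 and 70.0 in set 2 and 82.5, 84.5 and 110 in sgUFM1. Set 2 lay wholly below the controls and below sgUFM1. SEC61G was lower in set 2 than in the controls (-0.71, SE 0.12, adjusted p = 0.0019) and higher in sgUFM1 than in set 2 (0.48, SE 0.10, adjusted p = 5.7e-04).

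SEC62, which helps chains enter after their synthesis, had 102, 116 and 124 CPM in the controls, 85.4, 97.0 and 97.1 in set 1, 93.8, 92.9 and 88.3 in set 2 and 111, 128 and 131 in sgUFM1. Sets 1 and 2 lay below both other groups. The sgUFM1 level was 0.41 higher than set 1 on the log2 scale (SE 0.09, adjusted p = 0.016) and 0.44 higher than set 2 (SE 0.08, adjusted p = 1.4e-04), and differed from the controls by 0.11 (SE 0.11, adjusted p = 0.55). With offsets that take the trend on transcript GC content and length out of each library, SEC62 was called against the controls (0.34, adjusted p = 0.03), and no longer against set 1 (0.27, adjusted p = 0.066) or set 2, where it stood at 0.12 with an adjusted p of 0.11. SEC63, which recruits the chaperone BiP to the channel, showed 77.7, 74.3 and 89.2 CPM in the controls, 63.6, 68.8 and 69.8 in set 1, 52.1, 48.6 and 44.7 in set 2 and 77.9, 85.8 and 84.5 in sgUFM1. The order of sets was set 2, then set 1, then the controls and sgUFM1, which overlapped. Its change between sgUFM1 and set 2 was the highest of all members (0.78, SE 0.08, adjusted p = 4.8e-07), and it was the only member called between sets 2 and 1 (-0.47, SE 0.09, adjusted p = 0.028).

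In the TRAP complex, which sits beside the channel and helps weak signal sequences open it, SSR1 had 147, 189 and 201 CPM in the controls, 122, 166 and 153 in set 1, 136, 118 and 133 in set 2 and 197, 218 and 223 in sgUFM1. The sgUFM1 libraries were above sets 1 and 2 and overlapped the controls by 1 library. SSR1 was higher in sgUFM1 than in set 1 (0.53, SE 0.10, adjusted p = 0.012) and set 2 (0.73, SE 0.07, adjusted p = 3.1e-07), and the difference from the controls was 0.24 (SE 0.12, adjusted p = 0.21). SSR2 had 256, 322 and 252 CPM in the controls, 235, 282 and 288 in set 1, 225, 261 and 253 in set 2 and 314, 321 and 354 in sgUFM1. It passed the test against set 2 (0.43, SE 0.07, adjusted p = 5.7e-05) and not against set 1 (0.30, SE 0.09, adjusted p = 0.06) or the controls (0.25, SE 0.12, adjusted p = 0.19).

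SSR3, which holds a UPRE match in the window shown above, had 336, 364 and 363 CPM in the controls, 266, 315 and 309 in set 1, 299, 283 and 291 in set 2 and 353, 353 and 380 in sgUFM1. The controls and sgUFM1 lay above sets 1 and 2 without overlap. SSR3 was higher in sgUFM1 than in set 2 (0.32, SE 0.06, adjusted p = 3.5e-04) and lower in set 2 than in the controls (-0.30, SE 0.10, adjusted p = 0.034). With the offsets for GC content and length the lower call was lost (0.09, adjusted p = 0.51). SSR4, with another UPRE match, had 51.7, 56.0 and 41.9 CPM in the controls, 60.5, 70.6 and 69.4 in set 1, 55.5, 64.8 and 61.1 in set 2 and 65.5, 57.2 and 61.1 in sgUFM1. The controls were low, without overlap with set 1 or sgUFM1, and no comparison passed the test (set 1 against the controls 0.43, SE 0.13, adjusted p = 0.092).

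TRAM1, a membrane protein that meets the chain as it enters, had 178, 175 and 229 CPM in the controls, 143, 143 and 133 in set 1, 128, 125 and 128 in set 2 and 167, 187 and 193 in sgUFM1. Both sets 1 and 2 lay below the other groups. The sgUFM1 libraries were 0.39 higher than set 1 (SE 0.08, adjusted p = 0.014) and 0.53 higher than set 2 (SE 0.07, adjusted p = 6.7e-06) on the log2 scale, and set 2 was lower than the controls (-0.63, SE 0.12, adjusted p = 0.003). With the offsets for GC content and length the lower call was lost (-0.15, adjusted p = 0.26). TRAM2 was level, with all 12 libraries between 207 and 234 CPM and none of its 7 tests called.

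SRP9 had 198, 204 and 247 CPM in the controls, 161, 172 and 179 in set 1, 152, 161 and 153 in set 2 and 162, 178 and 194 in sgUFM1. The controls were above all 9 other libraries. SRP9 was lower in set 2 than in the controls (-0.50, SE 0.12, adjusted p = 0.0063) and higher in sgUFM1 than in set 2 (0.20, SE 0.07, adjusted p = 0.028). SRP54, the GTPase that holds the signal sequence, had 96.9, 95.5 and 123 CPM in the controls, 73.6, 78.4 and 76.8 in set 1, 77.4, 69.0 and 75.1 in set 2 and 87.3, 85.9 and 92.4 in sgUFM1. The sgUFM1 libraries lay between the controls and sets 1 and 2, without overlap. SRP54 was lower in set 2 than in the controls (-0.53, SE 0.13, adjusted p = 0.0069) and higher in sgUFM1 than in set 2 (0.27, SE 0.08, adjusted p = 0.0079), with -0.26 (SE 0.12, adjusted p = 0.17) for sgUFM1 against the controls. With the offsets for GC content and length none of these calls held. SRP9 was then at -0.14 in set 2 against the controls (adjusted p = 0.28) and at 0.04 in sgUFM1 against set 2 (adjusted p = 0.61), and SRP54 at -0.11 (adjusted p = 0.41) and 0.07 (adjusted p = 0.39).

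SRP72, which pairs with SRP68 on the particle's RNA, had 156, 180 and 192 CPM in the controls, 138, 139 and 148 in set 1, 137, 128 and 137 in set 2 and 140, 149 and 157 in sgUFM1. It was lower in set 2 than in the controls (-0.41, SE 0.11, adjusted p = 0.014), a call lost with the offsets for GC content and length (0.12, adjusted p = 0.45). No sgUFM1 comparison of SRP72 passed the test. SRP14, SRP19 and SRP68 were not called in any of 7 tests, with sgUFM1 differences from the controls of 0.07, -0.03 and -0.10. SRP19, which is needed to assemble the particle and has a UPRE match, stood at 20.1 to 27.9 CPM over the 12 libraries.

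For the receptor, SRPRA (ENSG00000182934, chromosome 11, 126262919 to 126269144), the GTPase that meets SRP54, had 350, 446 and 326 CPM in the controls, 329, 427 and 425 in set 1, 362, 365 and 376 in set 2 and 487, 500 and 529 in sgUFM1. As for SEC61A1, every sgUFM1 library was above all 9 others. SRPRA was higher by 0.43 against the controls (SE 0.12, adjusted p = 0.046), 0.36 against set 1 (SE 0.10, adjusted p = 0.045) and 0.47 against set 2 (SE 0.06, adjusted p = 5.3e-06) on the log2 scale. Its membrane anchor SRPRB had group means of 56.1 ± 6.63 CPM in the controls, 56.7 ± 5.59 in set 1, 49.8 ± 2.83 in set 2 and 63.3 ± 3.77 in sgUFM1 (SD, n = 3). SRPRB passed the test against set 2 (0.35, SE 0.08, adjusted p = 0.0017) and not against set 1 (0.16, SE 0.09) or the controls (0.17, SE 0.12).

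Among the catalytic subunits of OST, STT3B, which glycosylates sites that were passed over, had 340, 361 and 395 CPM in the controls, 282, 307 and 305 in set 1, 292, 279 and 280 in set 2 and 371, 403 and 435 in sgUFM1. Sets 1 and 2 were lower than both other groups, and the controls and sgUFM1 overlapped. STT3B was higher in sgUFM1 than in set 1 (0.44, SE 0.08, adjusted p = 0.01) and set 2 (0.51, SE 0.07, adjusted p = 5.5e-06). STT3A, which acts on chains in the channel, had 284, 354 and 294 CPM in the controls, 244, 301 and 301 in set 1, 258, 269 and 268 in set 2 and 298, 317 and 327 in sgUFM1. It passed the test against set 2 alone (0.25, SE 0.06, adjusted p = 0.0028), and its sgUFM1 libraries overlapped the controls and set 1.

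OST4, a very small subunit (ENSG00000228474, chromosome 2, 27070472 to 27071773), had 44.1, 42.5 and 27.4 CPM in the controls, 61.4, 68.6 and 65.4 in set 1, 64.5, 80.0 and 82.2 in set 2 and 77.2, 59.4 and 58.5 in sgUFM1. The 3 controls lay below all 9 others, which overlapped each other. OST4 was higher than in the controls by 0.77 in sgUFM1 (SE 0.17, adjusted p = 0.019) and by 0.97 in set 2 (SE 0.16, adjusted p = 0.0017), with 0.79 in set 1 (SE 0.17, adjusted p = 0.055). OSTC, found in the form of OST with STT3A, had 89.6, 85.6 and 103 CPM in the controls, 61.5, 68.2 and 62.1 in set 1, 56.2, 58.9 and 58.4 in set 2 and 66.5, 71.3 and 87.8 in sgUFM1. It ran opposite to OST4 in set 2 against the controls (-0.70, SE 0.11, adjusted p = 0.0014) and was higher in sgUFM1 than in set 2 (0.39, SE 0.09, adjusted p = 0.0022).

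MAGT1, an oxidoreductase subunit of the STT3B form, had 110, 131 and 136 CPM in the controls, 94.5, 120 and 118 in set 1, 93.6, 92.7 and 90.8 in set 2 and 123, 119 and 125 in sgUFM1. Set 2 was below every other library. MAGT1 was lower in set 2 than in the controls (-0.47, SE 0.11, adjusted p = 0.008) and higher in sgUFM1 than in set 2 (0.41, SE 0.07, adjusted p = 8.0e-05). With the offsets for GC content and length the lower call was lost (-0.06, adjusted p = 0.7). Its alternative subunit TUSC3 stood at 73.2 to 101 CPM and was not called. DAD1 had 116, 134 and 135 CPM in the controls, 111, 127 and 128 in set 1, 133, 156 and 156 in set 2 and 140, 136 and 155 in sgUFM1, with overlap between sgUFM1 and set 2, and no test called. KRTCAP2 had 5.6, 4.64 and 4.21 CPM in the controls, 6.08, 3.87 and 2.53 in set 1, 4.16, 3.4 and 4.54 in set 2 and 3.36, 3.86 and 3.68 in sgUFM1. Its sgUFM1 difference from the controls was -0.41 with a wide SE of 0.23 (adjusted p = 0.26).

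The shared subunits RPN1, RPN2 and DDOST were higher in sgUFM1 than in set 2, by 0.33, 0.18 and 0.17 on the log2 scale (each with SE 0.06), at adjusted p-values of 4.0e-04, 0.021 and 0.029. RPN1 had a mean of 239 ± 7.55 CPM in sgUFM1 and 189 ± 16.2 in the controls (SD, n = 3), without overlap, and missed the threshold there (0.33, SE 0.10, adjusted p = 0.056). RPN2 had 378 ± 10.6 CPM in sgUFM1 and 407 ± 47.6 in the controls, and DDOST 316 ± 1.15 and 270 ± 50.3. Neither passed the test against the controls.

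In the signal peptidase, SPCS3, a noncatalytic subunit, had 228, 254 and 264 CPM in the controls, 172, 221 and 209 in set 1, 199, 176 and 185 in set 2 and 254, 269 and 283 in sgUFM1. Sets 1 and 2 lay below the other groups. SPCS3 was higher in sgUFM1 than in set 1 (0.42, SE 0.09, adjusted p = 0.02) and set 2 (0.53, SE 0.07, adjusted p = 5.6e-06), and lower in set 2 than in the controls (-0.44, SE 0.11, adjusted p = 0.0093). With the offsets for GC content and length the calls against set 1 (0.30, adjusted p = 0.079) and of set 2 against the controls (0.07, adjusted p = 0.65) were lost. SPCS2 was also higher in sgUFM1 than in set 2 (0.35, SE 0.10, adjusted p = 0.0065), but a pseudogene named after it reached a mean of 9.78 CPM, so its count is uncertain where reads of the copies are alike. The catalytic subunit SEC11A had 74.3, 94.8 and 82.8 CPM in the controls, 67.0, 83.5 and 86.8 in set 1, 90.6, 99.2 and 101 in set 2 and 95.1, 98.8 and 104 in sgUFM1. The sgUFM1 libraries were above the controls and set 1, but the differences of 0.24 (SE 0.11, adjusted p = 0.18) and 0.33 (SE 0.10, adjusted p = 0.052) missed the threshold. SPCS1 and SEC11C were not called in any comparison.

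**Figure D3:**
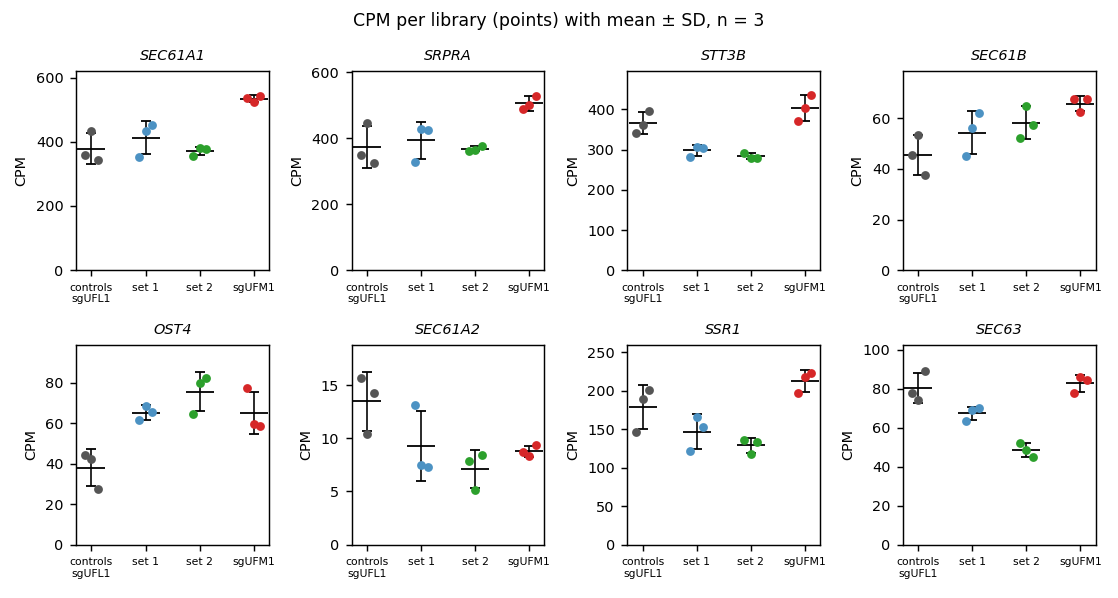
CPM of 8 members in each library (points, by set on the x axis) with the mean (bar) and SD (whiskers, n = 3), each axis from 0. In SEC61A1 and SRPRA the sgUFM1 points stand above all others; in STT3B and SEC63 sets 1 and 2 are low, and in OST4 the controls are low.

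The comparison of sgUFM1 with the controls is the one that both tables name alike. By its titles, though, these are the controls of the other guide, so culture or library differences cannot be told apart from the guide. Members had a median log2 fold change of 0.04 against -0.00 over all genes, and by complex the medians were 0.13 in the SEC61 channel, 0.24 in TRAP, 0.30 in the SRP receptor, 0.10 in the signal peptidase, 0.01 in OST and -0.17 in SRP. In 9 members all sgUFM1 libraries lay above all controls and in 4 below, beside 17.3% and 16.0% of all genes. The number of higher calls depended on single libraries: leaving out sgUFM1 replicate 1, 2 or 3 left 0, 1 and 1, and leaving out control replicate 1, 2 or 3 left 1, 10 and 3. OST4 was called in 5 of these 6 fits, SEC61A1 and SEC61B in 2 each and SRPRA in 1. The lower call of SEC61A2 held only without control replicate 2, where 4 members were lower.

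Against set 2, where 19.3% of all genes were higher, the sgUFM1 calls included 2 of 4 in the channel, both of SEC62 and SEC63, 3 of 4 in TRAP, 1 of 2 in TRAM, 2 of 6 in SRP, 2 of 2 in the receptor, 7 of 11 in OST and 2 of 5 in the signal peptidase. With the offsets SRP had 0 of 6 and a median of 0.03. Set 2 is the guide's own control by the count table and sgUFL1 by the FPKM table. The median was 0.26 for members and 0.01 for all genes, and 23 members and 23.6% of all genes had all sgUFM1 libraries higher. Leaving out each library in turn gave 17 to 22 higher calls. Of the 21, 13 were also lower in set 2 than in the controls (MAGT1, OSTC, SEC61G, SEC62, SEC63, SPCS2, SPCS3, SRP54, SRP9, SSR1, SSR3, STT3B and TRAM1). Both comparisons contain the set 2 libraries, so this count is not independent evidence.

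Against set 1, which is sgUFL1 by the count table and the guide's own control by the FPKM table, the 8 higher members were SEC61A1, SEC62, SEC63, SSR1, TRAM1, SRPRA, STT3B and SPCS3. All 8 were also higher against set 2. The median was 0.19 for members and -0.01 for all genes, and 16 members and 15.5% of all genes had all sgUFM1 libraries higher. Here too single libraries mattered: leaving out set 1 replicate 1, 2 or 3 gave 13, 5 and 4 calls, and leaving out sgUFM1 replicate 1, 2 or 3 gave 4, 0 and 0.

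**Figure D4:**
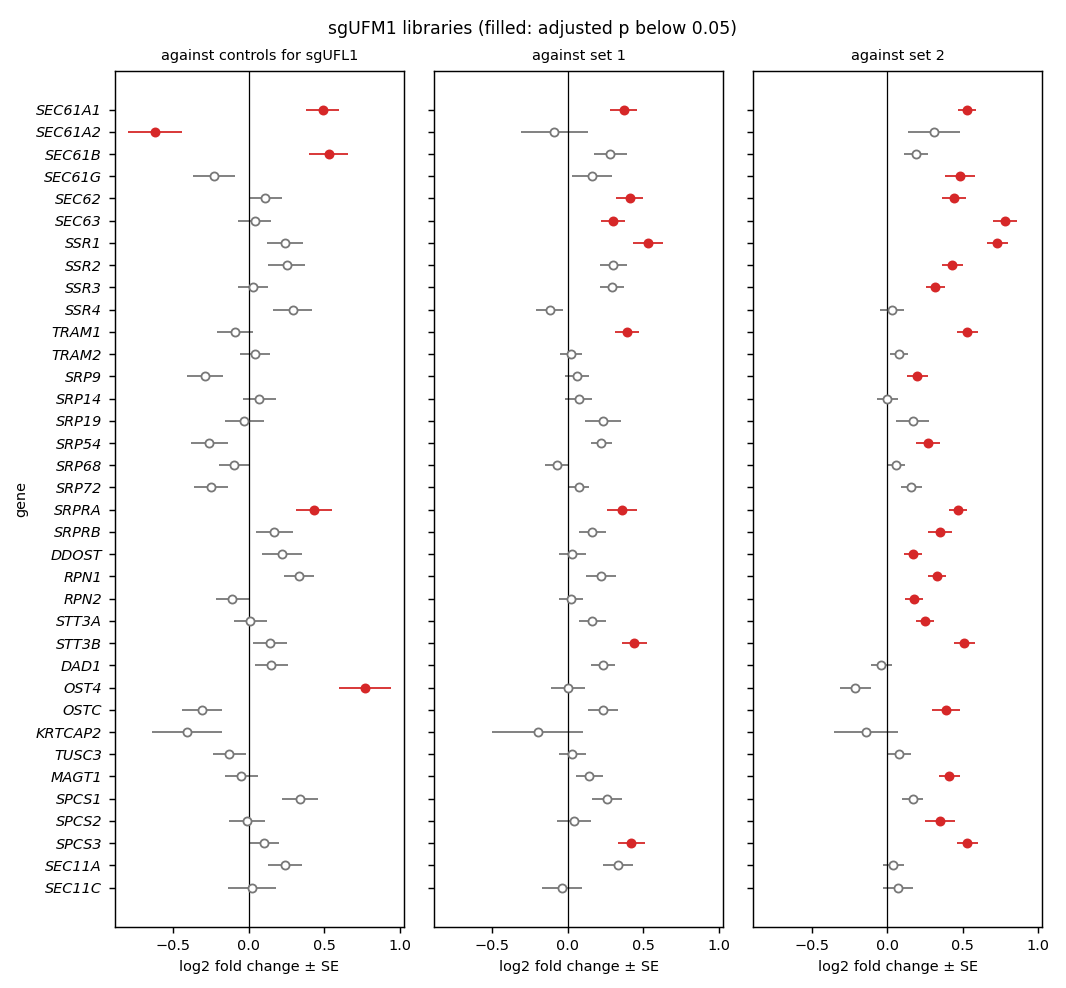
Log2 fold change of the sgUFM1 libraries (x axis, point ± SE) for each member (y axis) against the controls, set 1 and set 2, with filled red points at an adjusted p below 0.05. Against set 2, 21 points are filled, all to the right of 0; against the controls, 4 are filled to the right and SEC61A2 to the left.

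Set 2 against the controls is a comparison of both control groups by the count table and of sgUFL1 with its own controls by the FPKM table. In set 2, 15 members were lower and 1 higher, where 18.4% of all genes were lower and 17.4% higher, and the median was -0.24 for members and -0.03 for all genes. The lower members were SEC61A2, SEC61G, SEC62, SEC63, SSR1, SSR3, TRAM1, SRP9, SRP54, SRP72, STT3B, OSTC, MAGT1, SPCS2 and SPCS3, and the higher one was OST4. All set 2 libraries lay below all controls in 20 members (24.3% of all genes) and above them in 1 (25.3%). Without set 2 replicate 2 or 3 the lower calls were 6 and 8, and in the other 4 fits with a library left out they were 12 to 15.

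In set 1 against the controls, sgUFL1 with its own controls by the count table and both control groups by the FPKM table, no member was called by edgeR, where 1.08% of all genes were higher and 0.02% lower. At an unadjusted p below 0.05, 2 members were higher and 9 lower, and DESeq2 called 2 higher and 3 lower. Without control replicate 2, edgeR called 2 higher and 3 lower, and without set 1 replicate 1 it called 1 higher. OST4 and SSR4 had all set 1 libraries above the controls, and 11 members had them below, beside 16.7% and 16.5% of all genes. Between sets 2 and 1 the only call was SEC63, lower in set 2, where 0.705% of all genes were lower and 1.49% higher. SPCS2 (-0.30) and MAGT1 (-0.25) in the same direction and SEC11A (0.30, adjusted p = 0.12) in the other did not pass. With the GC and length offsets no member was called there, beside 1.67% of all genes higher and 1.04% lower. Without set 1 replicate 1 that comparison had 9 lower and 1 higher, and without set 1 replicate 2 or 3 or set 2 replicate 2 or 3 it had 0.

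Whether the response to sgUFM1 differed from that to sgUFL1 was tested as the difference of both guides' fold changes, each against its own controls. Exchanging the names of sets 1 and 2 leaves this contrast the same, so it holds under either table. By edgeR the difference was called positive in 16 members and negative in 1, beside 17.0% and 17.9% of all genes. Its median was 0.39 for members and 0.02 for all genes. The contrast sets sgUFM1 and the controls together against sets 1 and 2, so the level of the controls enters it as that of sgUFM1 does. A positive call is therefore not a higher level in sgUFM1 as such. SRP9 and SRP72, both called positive, stood at -0.29 and -0.25 in sgUFM1 against the controls. The highest were SEC63 (1.03, SE 0.13, adjusted p = 1.6e-04), SSR1 (1.01, SE 0.18, adjusted p = 8.1e-04) and TRAM1 (1.00, SE 0.14, adjusted p = 2.7e-04), followed by OSTC (0.92), SEC61G (0.85), SPCS3 (0.84), STT3B (0.80), SRP54 (0.73), SEC62 (0.72), MAGT1 (0.59), SSR3 (0.57), SRP9 (0.54), SRP72 (0.47), SSR2 (0.47), SEC61A1 (0.40) and STT3A (0.39). OST4 was called negative (-0.99, SE 0.22, adjusted p = 0.0037), while it stood at 0.77 in sgUFM1 against the controls. Leaving out each of the 12 libraries in turn gave 13 to 18 higher and 1 to 2 lower members. SSR4 (-0.40, SE 0.16, adjusted p = 0.059) and SEC61B (-0.08, SE 0.19) were next in that direction and did not pass.

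Members had a GC content of 38.4% to 60.3% with a median of 45.4%, below the median of 48.7% over the genes tested. Across the 36 members Spearman's rho between GC content and log2 fold change was 0.75 for set 2 against the controls, 0.79 for set 1 against the controls, 0.50 for sgUFM1 against the controls, -0.38 for sgUFM1 against set 1, -0.47 for sgUFM1 against set 2, 0.16 for set 2 against set 1 and -0.74 for the difference between guides. Over all genes the values were 0.75, 0.76, 0.53, -0.32, -0.47, 0.31 and -0.70. These are correlations across genes, which share libraries and are not replicates, and are given without a p. The AT-rich SEC62 (38.4% GC) and SEC63 (39.0%) were among those lower in set 2, and OST4 (54.2%) was the higher one.

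With the offsets for GC content and length, the lower members in set 2 against the controls went from 15 to 3 (SEC61G, OSTC and RPN2, beside 3.15% of all genes) and the higher ones from 1 to 2 (OST4 and SEC11A, 4.05%). In sgUFM1 against the controls the higher members went from 4 to 12, beside 4.36% of all genes, and none was lower. The 12 were SEC61A1, SEC61B, SEC62, SEC63, SSR1, SRPRA, RPN1, STT3B, OST4, SPCS1, SPCS3 and SEC11A. Against set 2, 18 were higher (16.1% of all genes), 16 of them among the 21. SEC62, SRP9, SRP54, STT3A and SPCS2 lost that call, and SEC61B and SSR4 gained one. Against set 1, 4 were higher (4.37%), SEC61A1, SRPRA, STT3B and TRAM1, with none lower (3.5%), and SEC62, SEC63, SSR1 and SPCS3 lost the call. SEC61A1, SRPRA and STT3B were then higher in all 3, which 2.05% of genes were, and none was lower in all 3 (1.62%). STT3B then stood 0.28 above the controls, 0.37 above set 1 and 0.39 above set 2 on the log2 scale. The difference between guides had 7 higher members (3.41% of all genes) and none lower (4.49%), the 7 being OSTC, RPN2, SEC61A1, SEC63, SRPRA, STT3B and TRAM1, of which 5 were also called without offsets. Whether the GC trend arose in the cells or in the libraries was not tested.

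**Figure D5:**
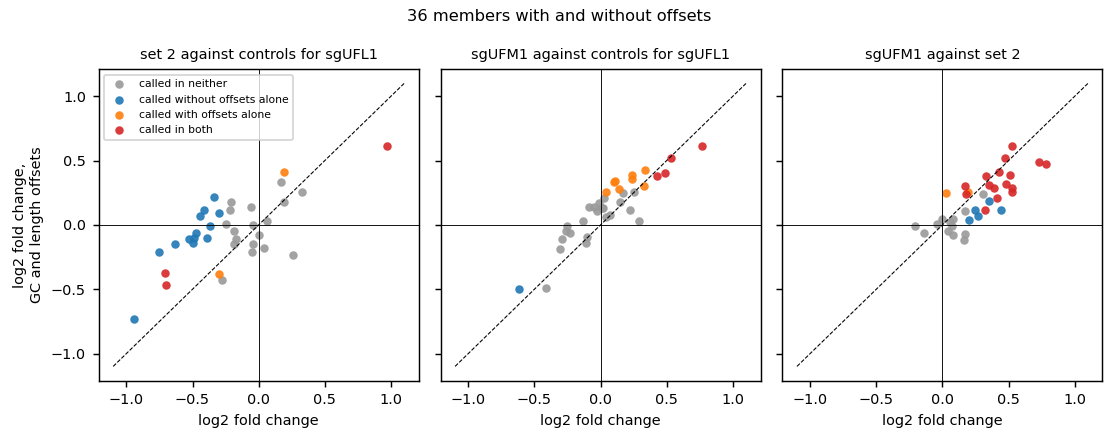
Log2 fold change of each member without (x axis) and with (y axis) offsets for GC content and length, in 3 comparisons, with colours for the calls and a dashed line of equal values. In set 2 against the controls most points left of 0 move up to near 0 and 15 lower calls become 3. In sgUFM1 against the controls the higher calls rise from 4 to 12 and the lower call of SEC61A2 is lost, and against set 2 most keep their call.

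Ratios between paralogues within a library do not depend on the scaling between libraries. They are not corrected for the trend on GC content and length, however. TRAM1 (39.6% GC) and TRAM2 (49.6%) differ in GC content, as do SEC61A1 (53.4%) and SEC61A2 (45.4%), while the other pairs lie closer. With the offsets, TRAM1 in set 2 against the controls went from -0.63 to -0.15 (adjusted p = 0.26 by edgeR) and TRAM2 from -0.04 to 0.00. The log2 ratio of SEC61A1 to SEC61A2 in FPKM was 4.57 ± 0.48 in the controls, 5.25 ± 0.66 in set 1, 5.47 ± 0.42 in set 2 and 5.67 ± 0.06 in sgUFM1 (SD, n = 3). That of TRAM1 to TRAM2 was 0.63 ± 0.27 and 0.50 ± 0.15 in the controls and sgUFM1, and 0.14 ± 0.09 and 0.05 ± 0.08 in sets 1 and 2. STT3A to STT3B was -0.92 ± 0.05 in sgUFM1, -0.80 ± 0.20 in the controls and -0.65 ± 0.11 and -0.66 ± 0.07 in sets 1 and 2. The sgUFM1 libraries did not overlap sets 1 and 2 in either of the last pairs. MAGT1 to TUSC3 was 0.33 ± 0.03 in set 2, below 0.54 to 0.66 elsewhere, and SEC11A to SEC11C was 1.37 ± 0.03 in set 1, below 1.53 to 1.77 elsewhere. In 30 exact two-sided permutation tests (5 pairs in 6 comparisons) the smallest p was 0.1, which is the smallest that 3 libraries against 3 allow, and the smallest Benjamini-Hochberg adjusted value was 0.19.

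Genes that work beside these members were taken as 6 further lists, whose counts against set 2 stand beside 19.3% of all genes higher and 18.5% lower, or 16.1% and 16.7% with the offsets. Of 26 other genes of OST and of the lipid-linked glycan precursor, 11 were higher and 3 lower in sgUFM1 against set 2 (6 and 2 with offsets), and none was called against the controls by edgeR (1 higher and 4 lower at an unadjusted p below 0.05). MPDU1, needed for the use of dolichol sugars, went from a mean of 74.6 to 102 CPM against set 2 (0.45, SE 0.08, adjusted p = 1.5e-04), and TMEM258, a further small OST subunit, from 81.0 to 59.3 CPM (-0.44, SE 0.09, adjusted p = 7.3e-04). Like OST4, TMEM258 was higher in set 2 than in the controls (0.72, SE 0.14, adjusted p = 0.003). Of 8 genes of glycan trimming and lectin-assisted folding, 3 were higher against set 2 (6 with offsets), namely CANX (0.62, SE 0.06, adjusted p = 2.1e-07), the lectin chaperone calnexin, and the folding sensors UGGT1 (0.54) and UGGT2 (0.48). UGGT1 was also higher against set 1 (0.37, SE 0.07, adjusted p = 0.013), and MOGS, the first glucosidase, was higher against the controls (0.66, SE 0.13, adjusted p = 0.0079). Set 2 was likewise above the controls for MOGS (0.64, adjusted p = 0.0034), with means of 169 CPM in set 2, 170 in sgUFM1 and 107 in the controls. For CANX and UGGT1, set 2 was below the controls (both -0.53, adjusted p = 0.0068 and 0.0083), neither called with offsets. Their means in sgUFM1 and the controls were 1719 and 1602 CPM for CANX and 236 and 232 for UGGT1. Against set 2 with offsets, UGGT2 lost its call (0.17, adjusted p = 0.17), while CANX (0.50) and UGGT1 (0.37) kept theirs.

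In the tail-anchor insertion pathway (GET/TRC), 4 of 7 genes were lower and none higher against set 2, while with offsets 1 was lower and 2 were higher. The 4 included GET3 (-0.37, SE 0.09, adjusted p = 0.0028), CAMLG (-0.31, SE 0.08, adjusted p = 0.0031) and SGTA (-0.27, SE 0.07, adjusted p = 0.0032). With offsets GET3 was at -0.13, SGTA at -0.04 and CAMLG, the 1 still called, at -0.39. The 2 higher genes, named here after their values were seen, were BAG6 (0.15, adjusted p = 0.0095) and UBL4A (0.17, adjusted p = 0.045). Of 10 subunits of the ER membrane protein complex (EMC), 2 were higher and 2 lower against set 2 (2 and 2 with offsets), including EMC3 (0.41) and EMC9 (-0.82). In the multipass translocon, 7 of 8 genes were tested, and 3 were higher and 1 lower (4 and 0 with offsets), with TMCO1 at 0.39 (SE 0.07, adjusted p = 1.9e-04) and TMEM147 at -0.27 (SE 0.07, adjusted p = 0.0058). Of 9 tested other factors at the channel, 4 were higher against set 2 (6 with offsets), led by SERP1 (0.36, SE 0.06, adjusted p = 1.2e-04), HYOU1 (0.30) and HSPA5, which encodes BiP (0.21), and HSPA5 was higher against set 1 as well (0.29, SE 0.08, adjusted p = 0.037).

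Of the members, 8 overlap another gene on the same strand and 23 one on the other strand in GENCODE 29. On the same strand, KRTCAP2 overlaps AL713999.1, which had 0 counts in all libraries. The strand setting of the counting is not given in the sources used here, so reads of OST4 and AGBL5, of SEC61A1 and RUVBL1 or MGLL, of SRPRA and FOXRED1 or FAM118B and of SEC61A2 and NUDT5 cannot be told apart where they overlap. Named pseudogenes exist for 9 members.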

How the data were processed

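Total RNA from TRIzol was sequenced on Illumina libraries, per the labels. Of the deposited tables, 1 gives read counts per gene in 12 libraries and the other FPKM, which the authors scaled by gene length. Alignment and counting involved fastp 0.20.1, STAR 2.7.7a, featureCounts 2.0.0 and GRCh38, per the submitters' processing notes; settings and strand are not stated there. FPKM columns times gene length were matched to count columns over 11031 genes of at least 50 counts: 6 had the same name, 6 had exchanged names.

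Counts were tested with edgeR 4.0.16 in R 4.3.3 (quasi-likelihood; TMM; filterByExpr), and p-values were adjusted by Benjamini-Hochberg over all genes tested, at a threshold of 0.05. CPM were TMM-scaled. A fit held the 6 libraries compared, or all 12 for the difference between guides. Alternatives were other scalings and filters, DESeq2 1.42.0, limma 3.58.1 on log2(FPKM + 0.5), where a gene needed 0.5 FPKM in 3 libraries, a fit over 12 libraries, a replicate block, lowess offsets (span 0.3) for GC content and length, and leaving out each library. The scripts were tested on simulated data. Of simulated 1.5-fold changes, 23.9% to 29.9% were called in the comparisons with the controls and 46.3% to 68.7% in the others. With a simulated GC trend and no true change, 2776 of 14748 genes were called in sgUFM1 against the controls. With the offsets 1 of 14744 was called. Every member is named. Values per library are given for members called in sgUFM1 against the controls, in all 3 sgUFM1 comparisons or in the difference between guides, and for the 3 highest and 3 lowest log2 fold changes of a comparison. Further lists give up to 3 genes by smallest p in a comparison. Members, lists and tests were chosen with earlier results of these data known.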

Additional observations from a re-analysis of the deposited data

How the results depend on the processing

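Counts of called members stayed within 1.5 times under the other settings except as follows. Members higher in sgUFM1 against the controls (4) were 12 with offsets for GC content and length, 10 with the replicate block and offsets, and 0 by limma on log2(FPKM + 0.5), with pseudocounts of 0.1 and 1 and without a filter. The 1 lower member there became 0 under upper-quartile scaling, the filter of 1 CPM in 3 libraries, the model over 12 libraries, offsets with or without the block, and all limma settings. Against set 1 the 8 higher became 4 with offsets, 4 by limma with pseudocounts of 0.5 and 1, 3 with 0.1, and 0 by limma without a filter. In set 1 against the controls the 0 higher became 2 without a filter, by DESeq2 and over 12 libraries, and the 0 lower became 3, 3 and 9, and 1 with the CPM filter. In set 2 against the controls the 1 higher became 2 under upper-quartile scaling, over 12 libraries, with the block, and with offsets with or without the block; the 15 lower became 3 with offsets, 4 with block and offsets and 5 by limma without a filter. Between sets 2 and 1 the 0 higher became 1 without a filter, 2 with the block and 1 with block and offsets, and the 1 lower became 0 with offsets, with block and offsets and in all limma settings. For the difference between guides, 16 higher became 7 and 1 lower became 0 with offsets, and 1 lower became 2 under upper-quartile scaling. The 2 members higher against all 3 sets became 1 over 12 libraries and 0 in all limma settings. The cause was not tested.

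Among called values, direction turned with offsets, and with block and offsets, for members lower in set 2 against the controls: SEC62 (0.22 and 0.23), SSR3 (0.09 and 0.10), SRP72 (0.12 and 0.12) and SPCS3 (0.07 and 0.08), and for SRP72 in the difference between guides (-0.16 and -0.16), none past the threshold. Over all members, comparisons and alternatives, 4306 values kept direction and side of the threshold, 249 turned sign without being called in either fit, 274 lost the call, 129 gained one and the 10 above turned from a call.

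With each library left out in turn, higher and lower members were 0 to 10 and 0 to 4 in sgUFM1 against the controls, 17 to 22 and 0 to 1 against set 2, 0 to 13 and 0 to 0 against set 1, 0 to 2 and 0 to 3 in set 1 against the controls, 1 to 3 and 6 to 15 in set 2 against the controls, 0 to 1 and 0 to 9 between sets 2 and 1, 13 to 18 and 1 to 2 for the difference between guides and 0 against all 3 sets. Same-numbered deviations correlated at -0.216 to 0.376 for set 1 against the controls, at 0.023 to 0.169 between sets 2 and 1, and over 0.1 in all 3 pairs in no comparison. With 3 pairs in a comparison these values cannot exclude that same-numbered libraries shared a culture or batch. With the replicate block alone, higher members were 4, 18 and 8 in sgUFM1 against the controls, set 2 and set 1, and 17 for the difference between guides, and set 2 against the controls had 14 lower.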
